A study of Rattus norvegicus with 20 samples.

Results

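The enzymes described here oxidise or reduce foreign chemicals and drugs. They are Cyp2e1 and Cyp1b1 (cytochromes P450), Por (the reductase that feeds P450s with electrons), Fmo1 and Fmo2 (flavin monooxygenases), Cbr1 (a carbonyl reductase) and Nqo1 (a quinone reductase). The 7 genes were selected on their measured changes against vehicle in these same arrays, and every probe with one of these symbols as its only gene symbol was taken, which gave 9 of the 35129 probes on the array. Cyp2e1 and Fmo2 had 2 probes each and the other genes 1. All 9 probes passed the filter on low values, and none had a missing value or a value at or below 0.

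RNA came from mesenteric arteries, vessels that feed the gut, of female Sprague Dawley rats dissected clear of veins and fat, with 1 array per rat. Rats received ethinyl estradiol (3 arrays), estradiol benzoate (3) or equilin (3) at 0.15 mg/kg per day, tamoxifen (4) or raloxifene (3) at 3 mg/kg per day, or the vehicle, a cyclodextrin solution (4). All rats, those given vehicle included, had been ovariectomised at 4 weeks of age, rested for 2 weeks and were gavaged daily for 3 weeks, so that they were 9 weeks old. Ethinyl estradiol is estradiol with an added ethynyl group, estradiol benzoate is an ester of estradiol, and equilin is an equine estrogen with an extra double bond and a ketone. Tamoxifen and raloxifene are selective estrogen receptor modulators, drugs that activate estrogen receptors in some tissues and block them in others, built on a triphenylethylene and a benzothiophene.

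P450 enzymes insert an oxygen atom into a substrate and draw their electrons from NADPH through the reductase encoded by Por. CYP2E1 oxidises small molecules such as ethanol, acetone and fatty acids, and CYP1B1, a target of the aryl hydrocarbon receptor (AHR), hydroxylates estradiol and is made in vessel walls. Flavin monooxygenases add oxygen to nitrogen and sulphur atoms of drugs, with no need for the P450 reductase. CBR1 reduces carbonyl groups of prostaglandins, quinones and drugs, and NQO1, a classic target of the transcription factor NRF2, reduces quinones without releasing radicals.

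The 250 bases before the annotated gene start (RefSeq, rat build GRCr8) are shown for the 3 genes with the largest changes. Cyp1b1, whose level changed little, is shown as well, as an AHR target among the 7. Capitals mark the xenobiotic response element core bound by AHR (GCGTG, or CACGC on the other strand), the estrogen response element half-site (GGTCA, or TGACC) and the TATA box (TATAAA).
Cyp2e1, chr1:205269717-205269966, plus strand: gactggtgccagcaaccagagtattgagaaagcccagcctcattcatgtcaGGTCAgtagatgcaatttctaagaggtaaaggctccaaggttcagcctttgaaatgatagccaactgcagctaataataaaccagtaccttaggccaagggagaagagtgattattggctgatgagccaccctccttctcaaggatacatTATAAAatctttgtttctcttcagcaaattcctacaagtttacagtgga
Fmo2, chr13:77777535-77777784, minus strand: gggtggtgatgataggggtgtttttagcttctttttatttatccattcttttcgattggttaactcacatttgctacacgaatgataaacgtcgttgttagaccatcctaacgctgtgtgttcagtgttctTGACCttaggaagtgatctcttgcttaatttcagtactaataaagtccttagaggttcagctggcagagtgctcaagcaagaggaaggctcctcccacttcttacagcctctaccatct
Cbr1, chr11:46346155-46346404, plus strand: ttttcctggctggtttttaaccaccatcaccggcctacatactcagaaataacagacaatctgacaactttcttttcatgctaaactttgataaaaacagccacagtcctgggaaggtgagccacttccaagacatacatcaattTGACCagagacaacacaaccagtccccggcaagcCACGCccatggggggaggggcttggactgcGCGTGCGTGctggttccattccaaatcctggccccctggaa
Cyp1b1, chr6:21094315-21094564, plus strand: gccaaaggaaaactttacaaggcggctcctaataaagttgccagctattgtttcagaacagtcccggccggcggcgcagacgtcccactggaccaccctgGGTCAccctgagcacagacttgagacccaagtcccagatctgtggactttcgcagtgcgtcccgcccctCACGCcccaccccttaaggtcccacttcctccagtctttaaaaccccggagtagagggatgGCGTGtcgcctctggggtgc
Cyp2e1 had a TATA box at -49 and a half-site at -199, counted from the gene start to the first letter of the match on the printed strand. Cbr1 had 3 xenobiotic cores, at -71, -41 and -37, of which those at -41 and -37 overlap by 1 base, and Cyp1b1 had 2, at -81 and -20. Neither the Cyp2e1 nor the Fmo2 window holds that core, which 25.9% of 33469 rat promoters of the same length contain. A half-site stood in each of the 4 windows and in 35.4% of all promoters, the TATA box in 12.9%, and the full palindrome GGTCANNNTGACC in 0.0239% and in none of the 4. The antioxidant response element core TGACNNNGC, present in 10.1%, was in none of them. Such a match describes these letters only. In the same annotation Fmo1 and Fmo2 are neighbouring coding genes on chromosome 13.

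By deposited median intensity there were 2 array sets, which no label mentions. In set A, at or above 1.0408, were vehicle array 1 and the 9 estrogen arrays. Set B, at or below 1.015, held vehicle arrays 2 to 4 and all tamoxifen and raloxifene arrays. A comparison of an estrogen with vehicle within its own set therefore rests on a single vehicle array, whereas the estrogens against each other, and tamoxifen against raloxifene, lie inside 1 set. Raloxifene array 3 stood apart: its correlation with the others averaged 0.841, and that of each other array 0.919 to 0.959. Intensities are linear and have no physical unit, and changes are on the log2(intensity + 0.103) scale with each array centred on its median, so changes of low values are understated. With 3 or 4 arrays a group, the array number limits precision. The median change of all tested probes against vehicle lay between -0.17 (equilin) and -0.02 (raloxifene). In whole arteries, fewer cells of a type and less RNA per cell cannot be told apart. The smooth muscle marker Myh11 (222 to 580) and the endothelial marker Pecam1 (40.5 to 87.0) were bright on all arrays, and the fat cell hormone Adipoq (51.8 to 140) was bright too, although fat had been dissected away.

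Cyp2e1 was higher than in vehicle arteries in 4 of the 5 compound groups and was highest after tamoxifen. Its brighter probe, 189092, read 12.9, 5.46 and 11.7 on the ethinyl estradiol arrays, 5.11, 1.36 and 0.697 with estradiol benzoate, 6.89, 5.55 and 6.82 with equilin, 21.7, 23.6, 13.7 and 8.54 with tamoxifen, 5.97, 3.71 and 7.97 with raloxifene, and 2.10, 2.66, 0.714 and 1.11 with vehicle. All arrays of ethinyl estradiol, equilin, tamoxifen and raloxifene lay above all vehicle arrays, and the estradiol benzoate arrays spanned the vehicle range and beyond. The changes against vehicle were 2.56 ± 0.54 (SE) for ethinyl estradiol, 0.18 ± 0.54 for estradiol benzoate, 2.01 ± 0.54 for equilin, 3.33 ± 0.50 for tamoxifen and 1.88 ± 0.54 for raloxifene. The tamoxifen change equals 10.1-fold, with a 95% interval of 2.28 to 4.39 in log2. The second probe, 118100, gave 2.52, 0.28, 2.03, 3.68 and 2.15 for the compounds in the same order, and the centred log2 values of the 2 probes correlated at r = 0.981 over the 20 arrays.

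Within the array sets, the Cyp2e1 changes at probe 189092 were 2.11 ± 0.83 for ethinyl estradiol, 1.55 ± 0.83 for equilin, 3.49 ± 0.55 for tamoxifen and 2.03 ± 0.59 for raloxifene. The tamoxifen arrays spread widely, and the change was 3.14 without tamoxifen array 2 and 3.62 without array 4. The near-zero estradiol benzoate change came from scattered arrays: it was -0.58 at probe 189092 and -0.52 at probe 118100 without array 1, and 0.77 and 0.90 without array 3. Ordered by mean at probe 189092, tamoxifen stood first, then ethinyl estradiol, equilin, raloxifene, estradiol benzoate and vehicle. Among these neighbours only the step between raloxifene and estradiol benzoate (1.70, 95% interval 0.48 to 2.92) had an interval that excluded 0. At probe 118100 raloxifene stood above equilin, and the step between equilin and estradiol benzoate (1.75, 0.41 to 3.10) was the one whose interval excluded 0.

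Cyp2e1 is abundant in liver and is also expressed in fat, so marker lists for both were read beside it. None of the 11 tested adipocyte markers of 14 listed passed the test in any comparison with vehicle. Their summed intensity was 763 to 1061 with tamoxifen, 742 to 1036 with ethinyl estradiol, 1061 to 1131 with equilin, 785 to 802 with raloxifene, and 793 to 1112 with vehicle. Their score (mean centred log2 value, relative to the mean in vehicle) was 0.164 to 0.237 with equilin, above all vehicle arrays at -0.191 to 0.159, and overlapped vehicle with ethinyl estradiol (-0.25 to 0.05) and tamoxifen (-0.14 to 0.26). Of the hepatocyte markers 7 of 13 were tested, of which 1 fell with ethinyl estradiol and none passed with another compound. They summed to 74.7 to 97.9 in tamoxifen arteries and 75.8 to 98.3 in vehicle arteries. Alb (albumin) read 1.02 to 2.35 in tamoxifen arteries and 1.11 to 2.41 in vehicle arteries, and Ttr (transthyretin), at or under 0.255 on every array, did not pass the filter. Markers of pancreatic acinar cells are digestive enzyme genes, of which 8 of 9 were tested. They summed to 90.4, 156, 61.45 and 23.8 on tamoxifen arrays 1 to 4, which ranks these arrays as both Cyp2e1 probes do. The ranks also matched with estradiol benzoate and differed in the other groups. The sums were 4.76, 3.56 and 1060 on the ethinyl estradiol arrays and 9.81 to 139 with vehicle. Without ethinyl estradiol array 3, the 1 at 1060, the Cyp2e1 change for that compound was 2.40 at probe 189092. Fibroblast markers, of which 7 of 8 were tested, summed to 298 to 373 with ethinyl estradiol, 299 to 359 with equilin and 330 to 423 with tamoxifen, against 382 to 469 with vehicle, and 1 of them fell with ethinyl estradiol and 1 with equilin. By fibroblast score, each of these compound groups overlapped vehicle. Over the 20 arrays the fibroblast score correlated with Cyp2e1 (probe 189092) at r = -0.506. The pancreatic acinar, hepatocyte and adipocyte scores correlated at 0.411, 0.393 and 0.277. The 1 tested intestinal marker, at or under 0.667 on every array, correlated at -0.491. These values are a description over arrays that share groups. The part of these cells in the Cyp2e1 values was not tested.

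**Figure D1:**
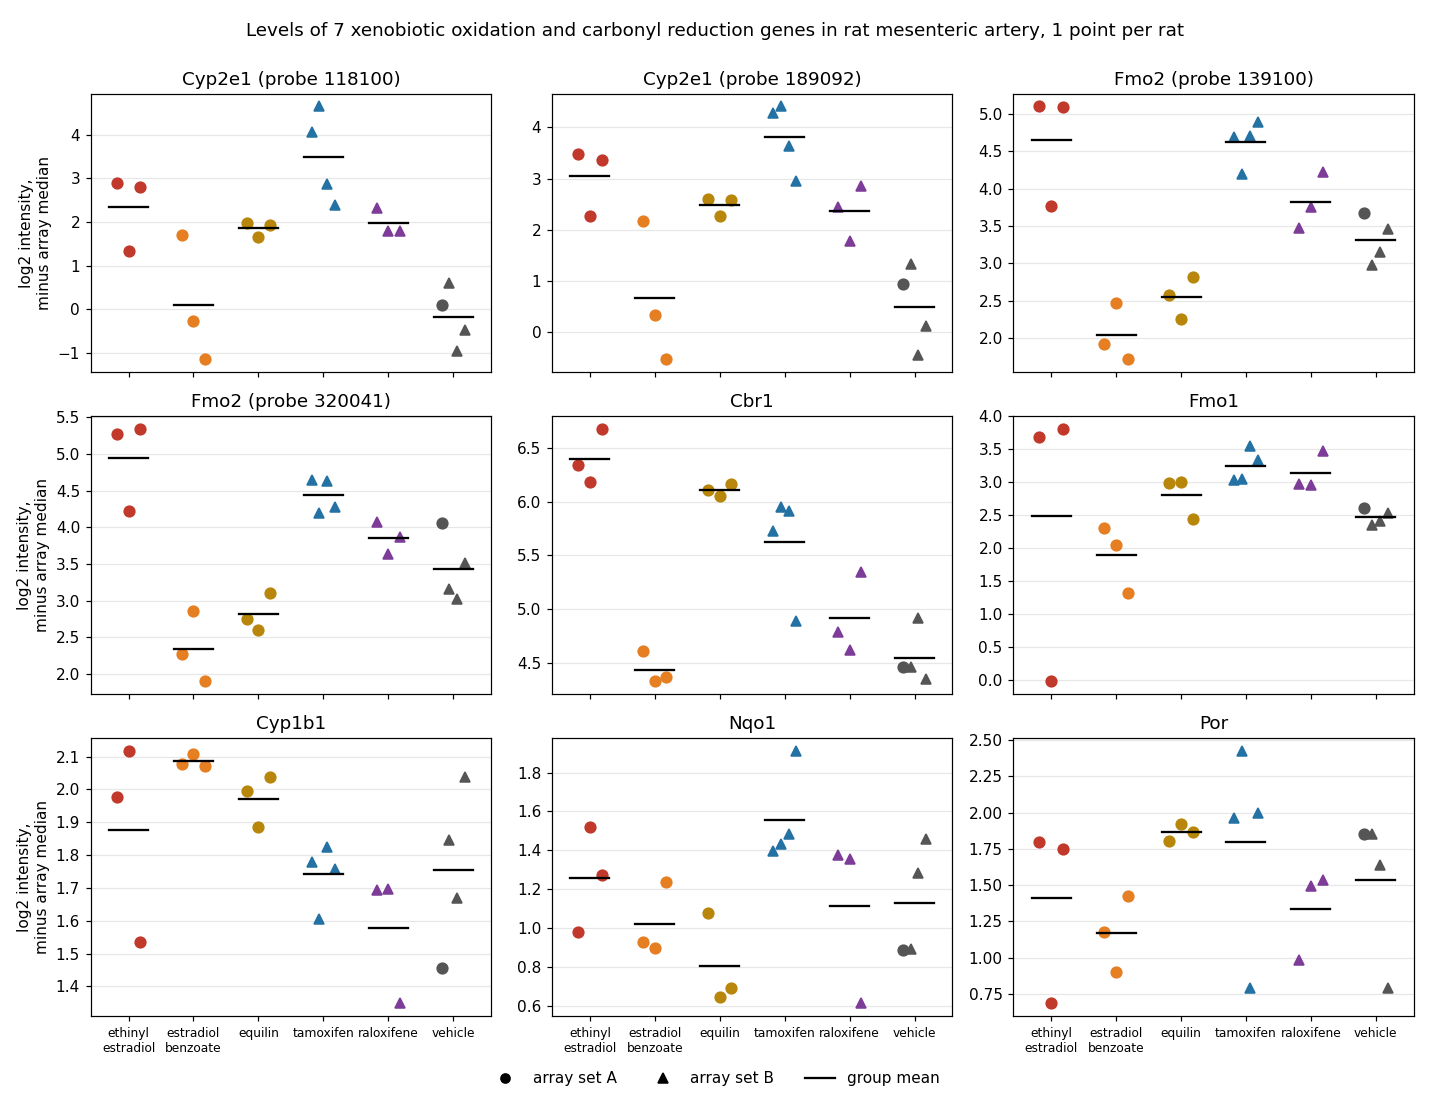
Log2 intensity of each of the 9 probes minus the array median (vertical axis) by group, with 1 point per array, circles for array set A, triangles for set B and a line at the group mean. For Cyp2e1 all tamoxifen arrays lie above all vehicle arrays, and for Cbr1 all ethinyl estradiol and equilin arrays lie above all estradiol benzoate and vehicle arrays.

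Cyp1b1 and Por were close to their vehicle levels. Cyp1b1 (probe 107033) read 4.46, 4.87 and 3.21 with ethinyl estradiol, 4.79, 4.85 and 4.73 with estradiol benzoate, 4.47, 4.196 and 4.63 with equilin, 3.72, 3.29, 3.85 and 3.68 with tamoxifen, 3.48, 3.50 and 2.72 with raloxifene, and 3.05, 3.87, 3.44 and 4.47 with vehicle. Its changes ran from -0.17 ± 0.17 with raloxifene to 0.33 ± 0.17 with estradiol benzoate, whose 3 arrays, very close to each other, lay above all 4 vehicle arrays. Every 95% interval against vehicle included 0. Within the array set the estrogen changes were larger, at 0.42 ± 0.24 for ethinyl estradiol, 0.63 ± 0.24 for estradiol benzoate and 0.52 ± 0.24 for equilin, and they rest on vehicle array 1, the lowest of the vehicle arrays.

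Por (probe 288069) read 3.93, 1.74 and 3.74 with ethinyl estradiol, 2.52, 2.05 and 2.98 with estradiol benzoate, 3.89, 4.30 and 4.11 with equilin, 4.24, 5.89, 1.83 and 4.36 with tamoxifen, 2.09, 3.02 and 3.12 with raloxifene, and 4.03, 3.89, 3.37 and 1.82 with vehicle. Every group overlapped vehicle, and the changes ran from -0.36 ± 0.35 (estradiol benzoate) to 0.33 ± 0.35 (equilin). Within the array sets they were -0.44 ± 0.53 for ethinyl estradiol, -0.68 ± 0.53 for estradiol benzoate, 0.01 ± 0.53 for equilin, 0.37 ± 0.35 for tamoxifen and -0.09 ± 0.38 for raloxifene. Vehicle array 4 was the lowest of its group, and without it the Por change was 0.08 for equilin and 0.01 for tamoxifen. With tamoxifen, where Cyp2e1 was 10.1-fold higher, the change of the P450 reductase was 0.26 with a 95% interval of -0.42 to 0.94.

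Fmo2, the flavin monooxygenase known as the lung form, was higher than in vehicle arteries with ethinyl estradiol and tamoxifen and lower with estradiol benzoate. Probe 320041 read 44.5, 21.3 and 46.4 with ethinyl estradiol, 5.502, 8.27 and 4.19 with estradiol benzoate, 7.64, 6.96 and 9.85 with equilin, 27.7, 20.4, 27.6 and 21.5 with tamoxifen, 18.6, 13.8 and 16.0 with raloxifene, and 19.1, 9.75, 8.92 and 12.5 with vehicle. Every ethinyl estradiol and tamoxifen array was above all vehicle arrays, and every estradiol benzoate array was below them. The changes were 1.51 ± 0.30 for ethinyl estradiol, -1.09 ± 0.30 for estradiol benzoate, -0.62 ± 0.30 for equilin, 1.0 ± 0.27 for tamoxifen and 0.42 ± 0.30 for raloxifene. Probe 139100 gave 1.34, -1.28, -0.77, 1.31 and 0.50 in that order, and the 2 probes correlated at r = 0.962.

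The Fmo2 changes differed in size within the array sets. Vehicle array 1 was the highest vehicle array for both probes. Within the set the change at probe 320041 was 0.88 ± 0.41 for ethinyl estradiol, -1.72 ± 0.41 for estradiol benzoate, -1.24 ± 0.41 for equilin and 1.21 ± 0.27 for tamoxifen, in the same directions as over all arrays. Ethinyl estradiol array 2 held the lowest Fmo2 value of its group, and without it the change at probe 139100 was 1.79. Scores of the smooth muscle list (7 tested markers) also separated the estrogens: they were 0.01 to 0.32 with ethinyl estradiol, -0.48 to -0.43 with estradiol benzoate, -0.55 to -0.42 with equilin, -1.23 to -0.07 with tamoxifen, and -0.18 to 0.18 with vehicle. Of these 7 markers 1 rose with ethinyl estradiol, and 1 fell with estradiol benzoate and with equilin. With tamoxifen Fmo2 was higher while this score was at or below -0.07. Over the 20 arrays Fmo2 (probe 320041) correlated with the smooth muscle score at r = 0.36. Other lists gave larger values: pancreatic acinar 0.534, mesothelium (3 tested markers) 0.485, fibroblast -0.437 and macrophage 0.376. These values are descriptions over arrays that share groups, and the part of any of these cells in the Fmo2 values was not tested.

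Fmo1 (probe 126091) read 14.8, 1.03 and 16.0 with ethinyl estradiol, 5.61, 4.68 and 2.78 with estradiol benzoate, 8.99, 9.21 and 6.16 with equilin, 9.02, 9.14, 12.97 and 11.3 with tamoxifen, 8.65, 8.53 and 12.2 with raloxifene, and 6.91, 5.51, 5.85 and 6.37 with vehicle. All tamoxifen and raloxifene arrays lay above the 4 vehicle arrays, with changes of 0.77 ± 0.55 and 0.66 ± 0.60, and the estradiol benzoate arrays lay below them once each array was centred. The ethinyl estradiol group held both the 2 highest Fmo1 values of the study and its lowest, on array 2. Its change of 0.02 ± 0.60 was 1.27 without array 2 and -0.64 without array 3. The model shares 1 spread over all groups, so this array enters the standard error of every Fmo1 comparison. Over the 20 arrays Fmo1 and Fmo2 (probe 320041) correlated at r = 0.462, and over the 19 without ethinyl estradiol array 2 at 0.824, a description over arrays that share groups and array sets.

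**Figure D2:**
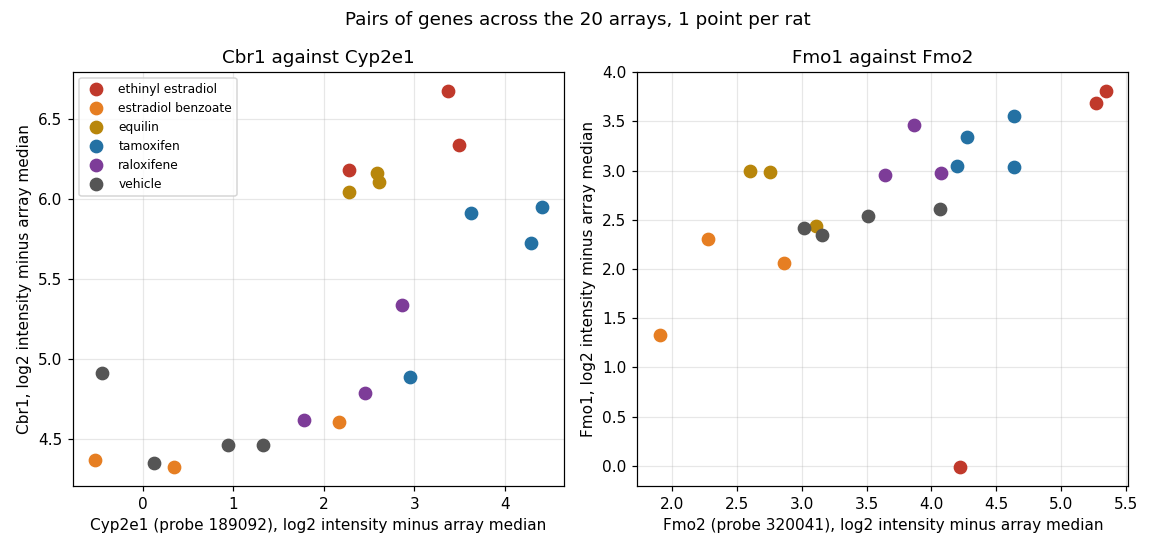
Log2 intensity minus the array median of Cbr1 against Cyp2e1 (left) and of Fmo1 against Fmo2 (right), with 1 point for each of the 20 arrays, coloured by group. The ethinyl estradiol array with an Fmo1 intensity of 1.03 lies far below all others on the right, and the remaining 19 points correlate at 0.824.

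Cbr1 was higher than in vehicle arteries with ethinyl estradiol, equilin and tamoxifen, and not with estradiol benzoate. Probe 181020 read 93.5, 83.0 and 117 with ethinyl estradiol, 28.1, 23.0 and 23.7 with estradiol benzoate, 79.0, 76.9 and 82.7 with equilin, 58.8, 68.9, 67.1 and 33.0 with tamoxifen, 30.6, 27.2 and 44.8 with raloxifene, and 25.2, 24.2, 33.5 and 22.6 with vehicle. All ethinyl estradiol and equilin arrays exceeded every vehicle array more than 2-fold, and the estradiol benzoate arrays lay inside the vehicle range. The changes were 1.85 ± 0.24 (3.61-fold) for ethinyl estradiol, -0.11 ± 0.24 for estradiol benzoate, 1.56 ± 0.24 (2.95-fold) for equilin, 1.07 ± 0.22 (2.10-fold) for tamoxifen and 0.37 ± 0.24 for raloxifene. Tamoxifen array 4 fell within the vehicle range, and the other 3 did not. Within the array sets the values were 1.94 ± 0.37, -0.03 ± 0.37, 1.64 ± 0.37, 1.04 ± 0.25 and 0.34 ± 0.26 in the same order. The fibroblast score correlated with Cbr1 at r = -0.554 over the 20 arrays. Summed, these markers were 298 to 373 with ethinyl estradiol and 299 to 359 with equilin, all below vehicle (382 to 469). The scores overlapped vehicle, at -0.74 to -0.32 with ethinyl estradiol and -0.52 to -0.16 with equilin, against -0.38 to 0.38. The hepatocyte score correlated with Cbr1 at 0.519, and the 1 tested intestinal marker, a dim gene, at -0.695. The part of these cells in the Cbr1 values was not tested.

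Nqo1 (probe 32039) read 2.18, 3.19 and 2.66 with ethinyl estradiol, 2.10, 2.04 and 2.61 with estradiol benzoate, 2.31, 1.72 and 1.77 with equilin, 2.83, 2.90, 3.02 and 4.10 with tamoxifen, 2.78, 2.75 and 1.60 with raloxifene, and 2.03, 1.94, 2.61 and 2.95 with vehicle. Each group overlapped vehicle. The changes lay between -0.33 ± 0.22 for equilin and 0.43 ± 0.20 for tamoxifen, and for ethinyl estradiol and equilin, where Cbr1 was higher, the 95% intervals of Nqo1 were -0.33 to 0.59 and -0.79 to 0.14.

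Because the 7 genes were chosen with these comparisons known, the numbers past the threshold (limma, adjusted p under 0.05 over all 24562 tested probes) describe them and test nothing. With ethinyl estradiol 5 of the 9 probes passed, all higher (both of Cyp2e1, both of Fmo2 and Cbr1), where 1.20% of all probes passed. With estradiol benzoate none passed, beside 0.700% of all probes. With equilin 2 passed, Cbr1 and 1 Cyp2e1 probe, beside 3.69% of all probes. With tamoxifen both Cyp2e1 probes passed, beside 0.224%, and they were among the 9 probes (0.0366%) that passed as higher. With raloxifene none passed, beside 2.04%. With the array set as a block the counts were 1 (Cbr1), 0, 0, 2 and 0 in the same order, where 0.546%, 0.407%, 0.647%, 0.106% and 0.0774% of all probes passed. Leaving out single arrays moved the ethinyl estradiol count to between 1 (without vehicle array 3, ethinyl estradiol array 1 or array 3) and 6 (without array 2), the equilin count to between 0 (without equilin array 2 or 3) and 3 (without vehicle array 2), and the tamoxifen count to 4 (without raloxifene array 3). On the centred scale, probes whose arrays all lay above those of vehicle numbered 5 of 9 for ethinyl estradiol (5.32% of all probes), 1 for estradiol benzoate (3.67%), 3 for equilin (6.95%), 5 for tamoxifen (2.16%) and 3 for raloxifene (6.19%). Those wholly below vehicle numbered 3 for estradiol benzoate (10.2%) and 1 for equilin (22.4%).

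**Figure D3:**
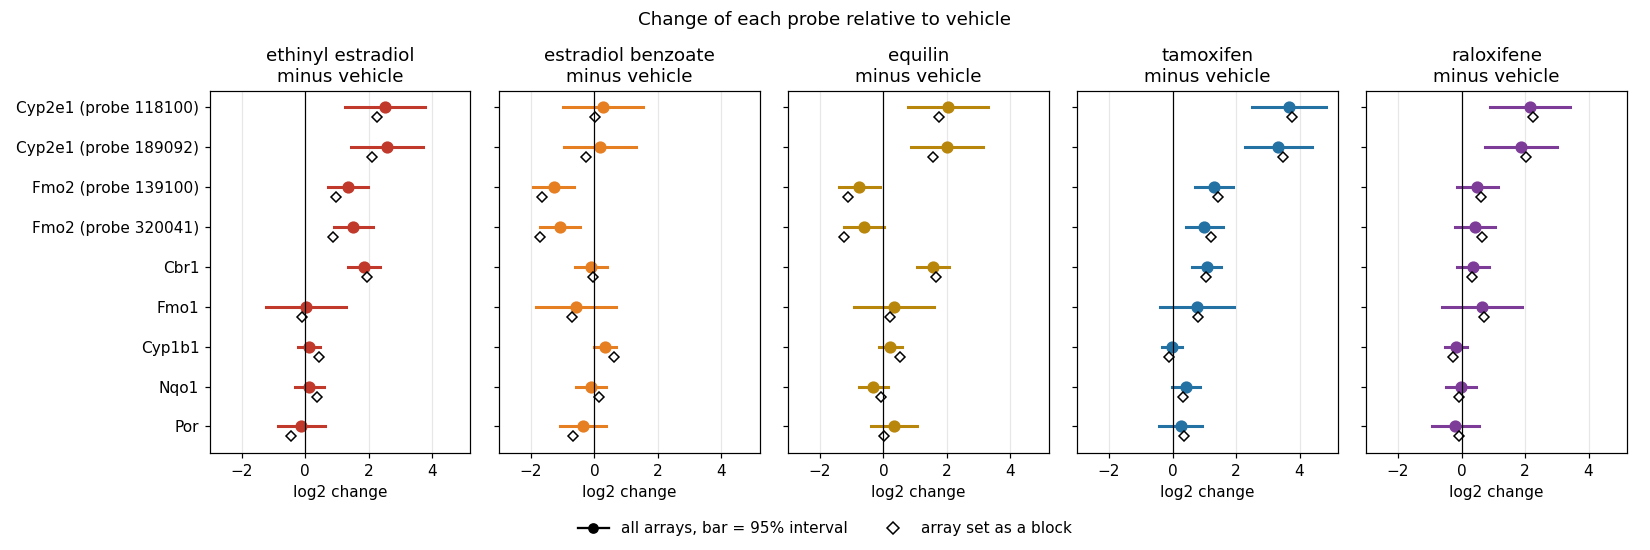
Log2 change against vehicle of the 9 probes for the 5 compounds, as filled points with 95% intervals from the fit over all arrays and open diamonds where the array set was a block. The Cyp2e1 intervals lie right of 0 for every compound but estradiol benzoate, and the filled points of Fmo2 lie right of 0 for ethinyl estradiol and tamoxifen and left of 0 for estradiol benzoate and equilin.

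The 3 estrogens were given at the same dose and lie inside 1 array set, and their differences are described in 3 pairs. These arrays were in view when the genes were selected, so the intervals and counts describe the genes and test nothing. Ethinyl estradiol exceeded estradiol benzoate by 2.60 at Fmo2 probe 320041 (95% interval 1.93 to 3.26), by 1.97 at Cbr1 (1.43 to 2.50) and by 2.38 at Cyp2e1 probe 189092 (1.17 to 3.60). Ethinyl estradiol exceeded equilin by 2.12 at Fmo2 (1.46 to 2.79), but by only 0.29 at Cbr1 (-0.25 to 0.83) and 0.55 at Cyp2e1 (-0.66 to 1.77). Equilin exceeded estradiol benzoate by 1.67 at Cbr1 (1.14 to 2.21) and 1.83 at Cyp2e1 (0.61 to 3.04), with a difference of 0.47 at Fmo2 (-0.19 to 1.14). Equilin thus lay near ethinyl estradiol for Cbr1 and Cyp2e1 and near estradiol benzoate for Fmo2, although intervals that include 0 do not show equal levels. The Cyp2e1 differences from estradiol benzoate at probe 189092 depended on single arrays of that group: ethinyl estradiol exceeded it by 1.79 without array 3 and 3.14 without array 1, and equilin by 1.23 and 2.58. Past the threshold were 3 of the 9 probes for ethinyl estradiol against estradiol benzoate (0.281% of all probes). For ethinyl estradiol against equilin 2 passed (0.175%), and for equilin against estradiol benzoate 0 (0%).

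Tamoxifen and raloxifene were also given at the same dose as each other. Tamoxifen exceeded raloxifene by 1.46 at Cyp2e1 probe 189092 (95% interval 0.32 to 2.59) and by 1.53 at probe 118100 (0.27 to 2.79). Cbr1 differed by 0.70 (0.20 to 1.21) and Fmo2 by 0.81 at probe 139100 (0.17 to 1.45) and 0.58 at probe 320041 (-0.04 to 1.20). Nqo1 differed by 0.44 (-0.02 to 0.90). None of the 9 probes passed limma's threshold, where 0.00407% of all probes did. These arrays were in view when the genes were selected, so the intervals and counts are a description here too. For both Cyp2e1 probes the lowest tamoxifen array stood above the highest raloxifene array, as at 4 of the 9 probes in all (4.74% of all probes). Without raloxifene array 3 the difference was 1.71 at Cyp2e1 probe 189092 and 0.92 at Cbr1.

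**Figure D4:**
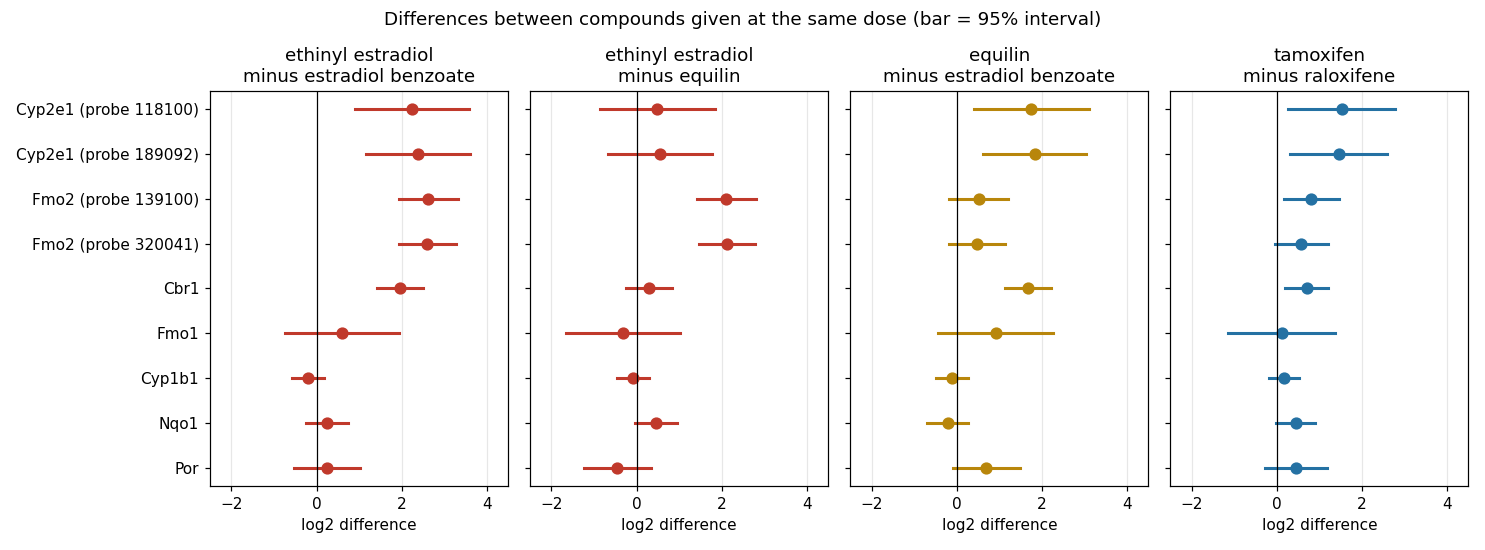
Log2 differences between compounds given at the same dose, as points with 95% intervals, for the 9 probes. Cyp2e1, Fmo2 and Cbr1 intervals exclude 0 between ethinyl estradiol and estradiol benzoate, and between ethinyl estradiol and equilin only the Fmo2 intervals do.

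Most other genes of drug metabolism did not pass the test with any compound. Of 105 genes in 5 lists (other P450s and oxidases, carbonyl, aldehyde and quinone enzymes, conjugation enzymes and epoxide hydrolases, the NRF2 pathway, and the AHR pathway with xenobiotic receptors), 79 were tested at their brightest probe. With ethinyl estradiol 2 rose and none fell (1.23% of all genes passed). They were Mgst2, a microsomal glutathione transferase (1.47 ± 0.25, limma adjusted p = 0.00926), and the P450 gene Cyp2f4 (1.22 ± 0.24, adjusted p = 0.0236). Cyp2f4 was dim: its mean centred log2 value was -1.91 in vehicle and -0.69 with ethinyl estradiol, both below the array median. With equilin the same 2 genes rose, by 0.97 ± 0.25 (Mgst2, adjusted p = 0.0416) and 0.98 ± 0.24 (Cyp2f4, adjusted p = 0.032), where 2.92% of all genes passed. With estradiol benzoate and with tamoxifen none passed, beside 0.0981% and 0.334% of all genes. With raloxifene 1 rose and 2 fell, beside 2.16% of all genes: Pgrmc1, a haem-binding partner of P450s, rose by 1.34 ± 0.30 (adjusted p = 0.0386), the glutathione transferase Gstm3 fell by 1.04 ± 0.23 (adjusted p = 0.0386), and Srxn1 (sulfiredoxin) fell by 0.93 ± 0.22 (adjusted p = 0.0416). Without raloxifene array 3 the list counts were 7 for ethinyl estradiol, 0 for estradiol benzoate, 7 for equilin, 2 for tamoxifen and 0 for raloxifene, and without raloxifene array 2 the raloxifene count was 15. With the array set as a block, only Cyp2f4 with ethinyl estradiol passed (adjusted p = 0.0258). The median changes over the 79 genes were -0.01, -0.13, -0.01, 0.06 and -0.07 for ethinyl estradiol, estradiol benzoate, equilin, tamoxifen and raloxifene, and over all genes -0.12, -0.16, -0.25, -0.05 and -0.10.

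No fixed relative or regulator of the 7 enzymes passed. Cbr3, which sits in the same enzyme family as Cbr1, changed by -0.47 ± 0.65 with ethinyl estradiol and 0.72 ± 0.65 with equilin (limma adjusted p = 0.804 and 0.537). Its log2 values were widely scattered with ethinyl estradiol (SD 2.38, against 0.24 in vehicle), which enters the shared standard error. All its equilin arrays lay above all vehicle arrays, as did those of 6.95% of all probes. Fmo4 and Fmo5 changed by 0.45 ± 0.31 and -0.02 ± 0.18 with ethinyl estradiol (adjusted p = 0.538 and 0.971), and Nqo2 by 0.04 ± 0.19. Cyp1a1, the most used marker of AHR activity, changed by 0.44 ± 0.20 with ethinyl estradiol, -0.01 ± 0.20 with estradiol benzoate, 0.37 ± 0.20 with equilin, 0.53 ± 0.19 with tamoxifen and 0.34 ± 0.20 with raloxifene (adjusted p = 0.339, 0.992, 0.304, 0.396 and 0.277). Cyp1a1 was dim, with group means of -0.92 to -0.37 in centred log2, below the array median. The change of Ahr itself ranged from -0.03 to 0.47 over the 5 compounds. The NRF2 gene Nfe2l2 ranged from -0.40 to 0.04, and its targets Gclc, Hmox1 and Txnrd1 changed by 0.25, 0.32 and 0.15 with ethinyl estradiol, with adjusted p of 0.798, 0.648 and 0.905. Txnrd1 (thioredoxin reductase) changed by -1.16 ± 0.36 with raloxifene (limma adjusted p = 0.0749). The epoxide hydrolase Ephx1 ranged from -0.19 to 0.26. The aldehyde dehydrogenase Aldh3a1 changed by -1.24 ± 0.31, -0.68 ± 0.31, -1.06 ± 0.31 and -0.77 ± 0.31 with ethinyl estradiol, estradiol benzoate, equilin and raloxifene (limma adjusted p = 0.0559, 0.609, 0.0615 and 0.122). Within the array sets these changes were -1.45, -0.90, -1.28 and -0.70. All Aldh3a1 values with ethinyl estradiol, estradiol benzoate, equilin and raloxifene lay below all vehicle arrays. For estradiol benzoate and equilin so did those of 10.2% and 22.4% of all probes, and the other shares are not given here. With tamoxifen Aldh3a1 changed by -0.30 ± 0.28 and overlapped vehicle.

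**Figure D5:**
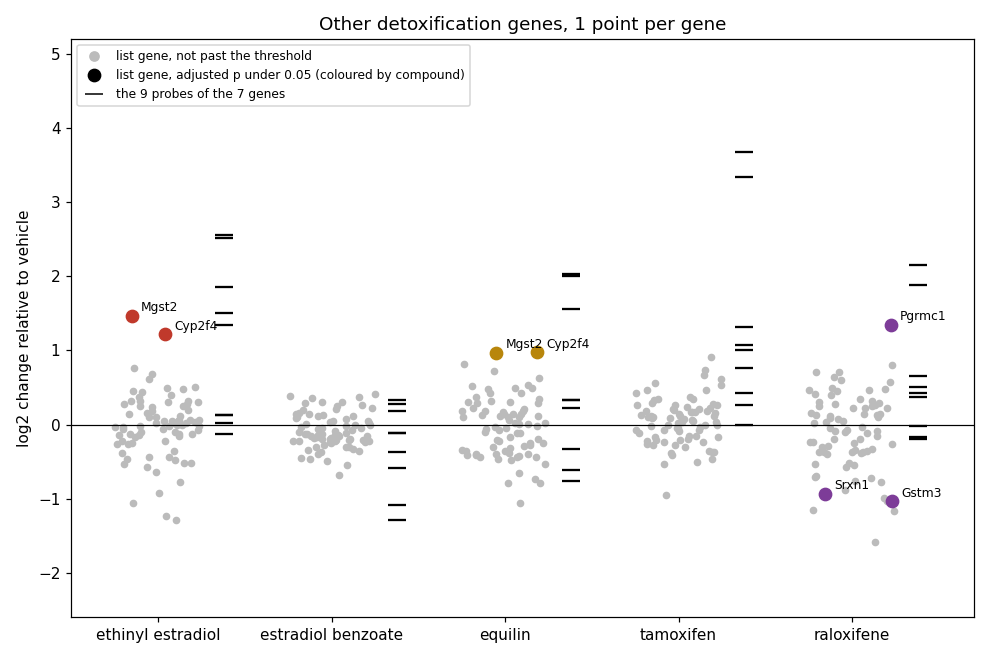
Log2 change against vehicle (vertical axis) of the 79 tested genes of the 5 drug metabolism lists for each compound, with 1 grey point per gene, large coloured points for those past the threshold, and dashes for the 9 probes of the 7 enzymes. The 2 highest dashes for ethinyl estradiol (2.52 and 2.56), equilin (2.01 and 2.03), tamoxifen (3.33 and 3.68) and raloxifene (1.88 and 2.15) are the Cyp2e1 probes, and they stand above all list genes.

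Among 10184 other genes, those whose centred log2 values over the 20 arrays were most like the Cyp2e1 values were Ntsr1 (r = 0.861), Ramp3 (0.785), Sdha (0.785), Mtarc1 (0.781) and Inmt (0.779). For Fmo2 they were Cib2 (0.862), Hspb1 (0.858), Depp1 (0.856), Atosa (0.827) and Cebpd (0.817), and for Cbr1 Sdha (0.812), Gpt (0.784), Dnph1 (0.781), Thrsp (0.779) and Cx3cl1 (0.779). For Fmo1 they were Klhl24, Phb2, Akr1b10, Nprl3 and Eif3i (0.833 to 0.849), for Cyp1b1 Aven, Hps1, 6430548M08Rikl, Def8 and Ly6g5c (0.815 to 0.862), for Nqo1 Crebl2, Ryk, Omd, Nop16 and Nif3l1 (0.864 to 0.883), and for Por Nup98, Rab8a, Mfsd11, Fhip2b and Paf1 (0.779 to 0.843). Among the 7 enzymes, Cyp2e1 (probe 189092) correlated with Cbr1 at 0.716 and with Fmo2 (probe 320041) at 0.645, but within groups at 0.413 and 0.397. These arrays share groups and array sets, and the values are descriptions.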

How the data were processed

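Arrays were single-colour CodeLink rat whole genome slides. Per the labels and the series' design text, the scanner was a GenePix 4000B, and the software named is GenePix Pro 5.0, Acuity 3.1 and GeneSpring 7.1. The deposited values are linear intensities, already background-subtracted and scaled per array by the authors, with array medians of 1.0007 to 1.0612. The sources used here do not say which program made them. Of 35129 probes, 16865 carry 1 gene symbol, 165 several and 18099 none in the platform annotation. No column of another sample was present.

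Values below 0 were set to 0, 0.103 (0.1 times the median) was added, and log2 values were centred on each array's median. After 40 probes with missing values and the lowest 30% by mean were left out, 24562 were tested. One limma 3.58.1 model (R 4.3.3) with a mean per group over 20 arrays and a variance trend gave changes, standard errors, 95% intervals and Benjamini-Hochberg adjusted p-values, and its script was tested on simulated data. The genes described and the lists were chosen with earlier results of these data known, so no p-value is given for any of the 9 probes. Genes were named by a set rule: every probe of the 7 enzymes, up to 4 list genes past the threshold in each direction, a fixed set of relatives and regulators, the 5 genes most like each enzyme, and 5 cell markers. Replicates are individual rats. Replicate numbers did not pair the samples: deviations of same-numbered arrays correlated at a median of 0.0239. Alternatives were quantile normalisation, 2 other offsets, no filter and a stricter filter, no variance trend, the array set or the replicate number as a block, only the groups compared, and leaving out each array.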

Additional observations from a re-analysis of the deposited data

How the results depend on the processing

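The 9 probes gave 81 changes, and none of those past the threshold turned its direction under any alternative run. Changes not past the threshold were left out of that check, and some of them turned. For example, Fmo1 changed by 0.02 with ethinyl estradiol over all arrays and by -0.64 without array 3 of that group. Por changed by -0.12 with ethinyl estradiol and by 0.24 without array 2. Of 2349 alternative values, 2336 moved by less than the spread between replicates and 13 by more. Many of these values could not move. A difference of group means stays the same under another filter, no variance trend or a fit of only the groups compared. It also stays the same when an array of an uncompared group is left out. The 2336 are therefore no measure of stability. The counts past the threshold depended on the run. Of the 9 probes, 5, 0, 2, 2 and 0 passed for ethinyl estradiol, estradiol benzoate, equilin, tamoxifen and raloxifene, and 2, 0, 2, 0 and 3 of the 79 list genes. Quantile normalisation gave 4 probes for tamoxifen. With no filter on dim probes, equilin had 1 probe and 1 list gene, and raloxifene 0 list genes. With the lowest 50% left out, ethinyl estradiol had 1 list gene and equilin 1 probe and 1 list gene. With the array set as a block, ethinyl estradiol had 1 probe and 1 list gene, equilin 0 and 0, and raloxifene 0 list genes. With only the groups compared in the fit, ethinyl estradiol had 1 probe and 0 list genes, and raloxifene 0 list genes. With the replicate number as a block, which does not pair these rats, ethinyl estradiol had 1 probe and 0 list genes, equilin 1 and 0, and raloxifene 1 list gene. The cause was not tested. Leaving out each array in turn gave 1 (without vehicle array 3) to 6 probes (without ethinyl estradiol array 2) for ethinyl estradiol, 0 (without equilin array 2) to 3 (without vehicle array 2) for equilin, 2 to 4 (without raloxifene array 3) for tamoxifen, 0 to 2 (without raloxifene array 2) for raloxifene, and 0 throughout for estradiol benzoate and for tamoxifen against raloxifene. The list counts ran from 1 to 7 for ethinyl estradiol, 0 to 7 for equilin, 0 to 2 for tamoxifen and 0 to 15 for raloxifene, with the high ends reached without raloxifene array 3 or, for raloxifene, array 2. The offset of 0.2 times the median and no variance trend left every one of these counts as it was.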
